A study of Homo sapiens with 3 samples.

Results

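Contacts between the RNA-binding protein TIA1 and RNA of the calnexin gene, CANX, were described in HEK293T cells, an established line derived from human embryonic kidney that expresses the large T antigen of SV40. CANX intervals were taken as all listed intervals on the plus strand of chromosome 5 that overlap positions 179125907 to 179158642 of hg19, a stretch of 32736 nt. The gene was chosen from the measured values themselves, by the crowd of reproducible peaks near its 3′ end. The number, position and enrichment of its intervals over the input are therefore described and not tested. The interval holds 9 of the 2253 reproducible peaks (0.399%), 35 of the 103134 clusters of replicate 1 and 28 of the 66222 clusters of replicate 2.

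The method was eCLIP, in which RNA is crosslinked to its bound proteins by ultraviolet light, pulled down with 1 of them and sequenced. HEK293T RNA immunoprecipitated with an antibody to TIA1 was sequenced in 2 replicates, beside 1 input without antibody. All 3 samples were crosslinked cells of 1 line with no further treatment or genetic change named in the labels. The labels call the replicates technical in one place and biological in another, so the spread between replicates may be technical. Separately, a protocol field gives the antibody as one to Msi1, under the catalogue number of the TIA1 antibody. Recovered totals were 2683407 reads in replicate 1, 1997817 in replicate 2 and 2851338 in the input.

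Calnexin is a membrane-bound chaperone of the endoplasmic reticulum. It holds newly made glycoproteins through their trimmed sugar chains until they have folded, and works with the soluble chaperone calreticulin and the disulfide isomerase PDIA3. TIA1 binds U-rich RNA in introns, where it can promote the use of weak splice sites, and in 3′ untranslated regions, where it is known for holding back translation. Exons and untranslated regions of hg19 were not used here, so positions are given within the interval and are not assigned to an exon or intron. The RNA sequence under the peaks was not analysed here for the same reason.

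TIA1 enrichment on CANX lay at the 3′ end of the interval. All 9 reproducible peaks fell between positions 179155943 and 179157808, a stretch of 1866 nt that makes up 5.70% of the genomic interval and ends 834 nt before it does. The edges of the stretch were set by the first and last of these peaks. Counts and folds inside and outside it therefore depend in part on that choice and are a description only. A cluster was called enriched at a log2 fold over input of at least 3 and a −log10 p of at least 3, both as the authors list them. In replicate 1, 12 of the 35 CANX clusters were enriched, where 3.09% of all clusters of that replicate were, and 11 of the 12 overlapped the stretch. In replicate 2, 10 of 28 were enriched, where 5.32% of all clusters were, and all 10 overlapped it. No cluster of either replicate lay on the minus strand across the interval, or on the plus strand within 5000 nt on either side of it.

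The number of reads moves with these calls. An enriched cluster held at least 13 reads in replicate 1 and at least 10 in replicate 2. Among CANX clusters with that many reads, 57.1% were enriched in replicate 1 (12 of 21) and 52.6% in replicate 2 (10 of 19). The same shares over all clusters with that many reads were 43% and 52%, so in replicate 2 the CANX share was near the background. Inside the 3′ stretch every cluster had enough reads, and 11 of 16 in replicate 1 and 10 of 17 in replicate 2 were enriched. All these shares count adjoining clusters separately, although such clusters can share reads. Joined with overlapping clusters of replicate 2, the 11 enriched clusters of replicate 1 in the stretch fell on 7 sites. The excess over the background in replicate 1 thus depends in part on how clusters were split.

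**Figure D1:**
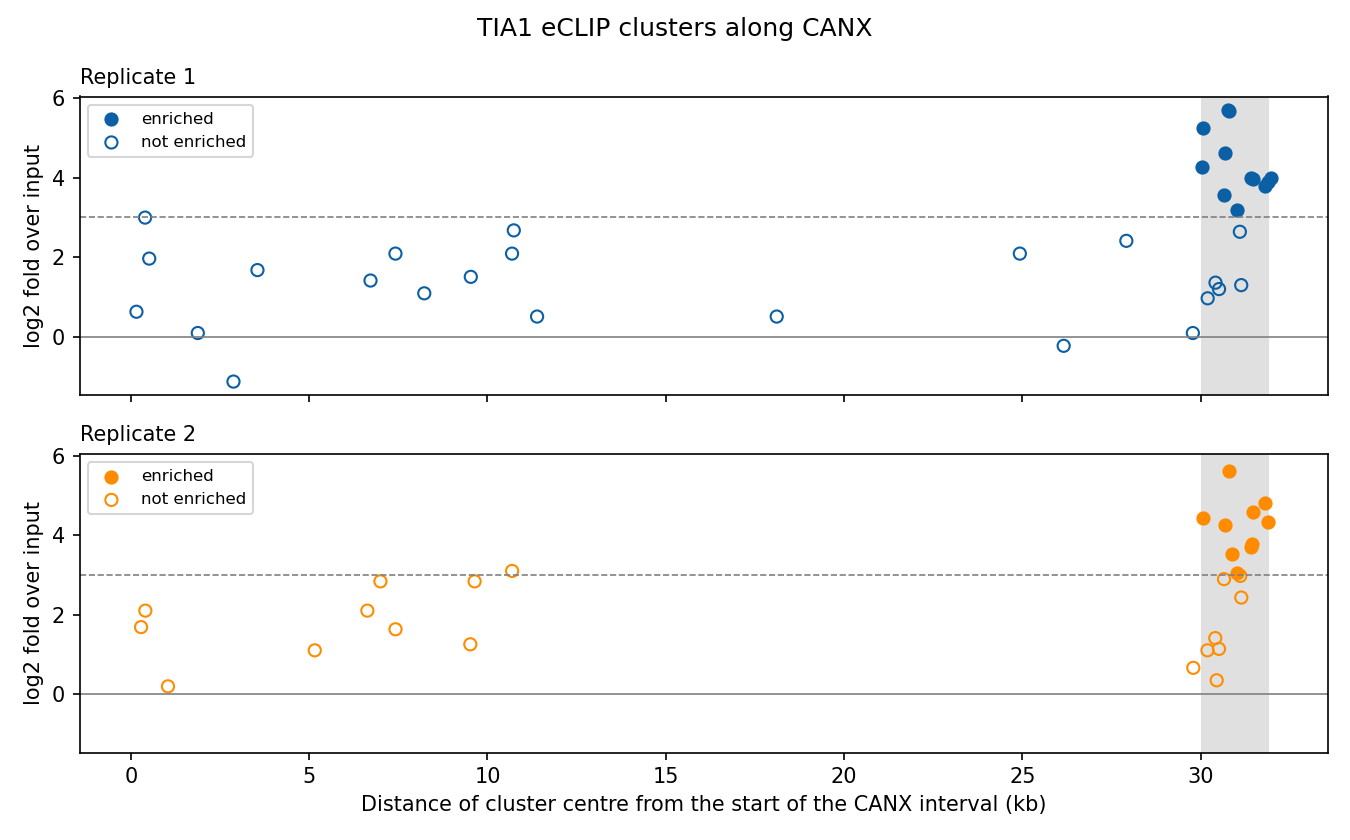
Log2 fold over input of each CANX cluster (vertical axis) against the distance of its centre from the start of the interval in kb, for replicate 1 (top) and replicate 2 (bottom). Filled points are enriched clusters, the dashed line marks a log2 fold of 3, and the grey band is the 3′ stretch of 1866 nt, which holds 11 of 12 and 10 of 10 enriched clusters.

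Outside the stretch the clusters were weaker. The median log2 fold was 3.84 within the stretch and 1.5 in the rest of CANX in replicate 1, and 3.51 and 1.68 in replicate 2. Clusters were also denser there, at 8.57 per kb in replicate 1 and 9.11 in replicate 2, against 0.615 and 0.356 per kb over the rest. These densities are per kb of genomic sequence. The rest measures 30870 nt and was not divided into exons and introns, while the longest complete coding transcript of the GENCODE basic set has 4260 nt. Counting 1 cluster per site, since neighbouring clusters can share reads, the share of CANX cluster reads that fell in the stretch was 79.3% in replicate 1 and 86.6% in replicate 2. The input was higher in the stretch as well. Its numbers at those clusters were 93 in the stretch and 69 in the rest for replicate 1, and 107 and 45 for replicate 2. On the same count the reads of the stretch stood at a log2 fold of 2.84 and 2.78, and those of the rest at 1.33 and 1.34. The clusters with known reads covered 471 nt in the stretch and 529 nt in the rest in replicate 1, and 506 and 324 nt in replicate 2, with all clusters of a site counted in these lengths. In replicate 1, 3 clusters of the rest had no recovered reads and are left out of the share and of the fold of the rest, and their log2 folds of -1.13, -0.23 and 0.09 were among the lowest of that replicate.

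The 9 peaks were spaced unevenly, with gaps between neighbours from 0 to 580 nt and a median of 131 nt. They were 20 to 52 nt wide (median 36 nt), and all 9 were narrower than the median of 53 nt over all reproducible peaks. Together they covered 301 nt, or 16.1% of the stretch. Their log2 folds ran from 3.12 to 5.73 with a median of 4.29, which is 19.6-fold, beside a median of 4.15 over all 2253 peaks. Of the 9, 6 lay above that overall median. The input number was 1 at 51.3% of the 2247 reproducible peaks with whole reads, and 1 to 8 at these 9. Ranks among all peaks thus set folds with unlike input numbers side by side. Each peak below is numbered from 5′ to 3′, and its bounds are those of a cluster of 1 replicate (replicate 1 for 3 peaks, replicate 2 for 6). The value of the other replicate was obtained from the listed mean, and whole read numbers came out for both replicates at all 9. Both folds of a peak use the same input reads, so the SD leaves out the error of the input.

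Peak 4 had the highest fold on CANX. It covers 179156672 to 179156709 and held 107 reads in replicate 1 and 69 in replicate 2 over 2 in the input. Its log2 fold was 5.73 ± 0.15 (SD, n = 2), above 97.0% of all reproducible peaks. In the list of replicate 1 this peak is split into 2 adjoining clusters of 98 and 96 reads (log2 folds 5.70 and 5.67), numbers that cannot add up within the 107 reads of the whole peak unless the same reads count in both. Adjoining intervals are therefore not separate measurements of TIA1 contact.

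The same holds at the 5′ edge of the stretch. Peak 1 (179155943 to 179155967) had 73 and 55 reads over 4 in the input, a log2 fold of 4.29 ± 0.01 (SD, n = 2). Peak 2 (179155968 to 179155991) begins at the next base, with 72 and 42 reads over 2 and a log2 fold of 5.08 ± 0.25 (SD, n = 2). Replicate 2 lists a single cluster there, from 179155941 to 179155989, with 60 reads over 4. Peaks 1 and 2 are thus a single contact region by the list of replicate 2 and a pair by that of replicate 1.

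Peak 3 (179156572 to 179156607) held 73 and 40 reads over 3 in the input, at a log2 fold of 4.47 ± 0.31 (SD, n = 2). It lies 64 nt before peak 4, and both replicates also had a cluster that ended at or near its first base. In replicate 1 the cluster under peak 3 itself, from 179156576 to 179156604, had 69 reads over 3 and a log2 fold of 4.61. The upstream cluster was enriched in replicate 1 (log2 fold 3.57, 56 reads over 5) and just missed the fold in replicate 2 (2.89, 26 reads over 5). Peak 5 (179156908 to 179156934) was the weakest, with 51 and 35 reads over 6 and a log2 fold of 3.12 ± 0.08 (SD, n = 2). Its fold was above that of only 2.53% of all reproducible peaks.

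Peak 6 (179157296 to 179157347) held the most reads, 120 in replicate 1 and 92 in replicate 2, but over 8 in the input, so its log2 fold was 4.02 ± 0.03 (SD, n = 2). Peak 7 (179157356 to 179157398) follows after 8 nt with 83 and 67 reads over 4 and a log2 fold of 4.52 ± 0.08 (SD, n = 2). Replicate 1 lists 88 reads over 6 from 179157348 to 179157399 (log2 fold 3.96). Replicate 2 divides the first of the pair into clusters of 64 reads over 7 (3.71) and 58 over 6 (3.79). Clusters of the replicates run across that gap, and joined where they overlap they form a site from 179157295 to 179157399. This was the widest CANX site, at 105 nt.

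The last peaks were smaller in reads. Peak 8 (179157689 to 179157724) held 26 reads in replicate 1 and 39 in replicate 2 over 2 in the input, a log2 fold of 4.29 ± 0.71 (SD, n = 2), the widest spread among the 9. Peak 9 (179157789 to 179157808) held 14 reads in each replicate over 1, a log2 fold of 4.11 ± 0.30 (SD, n = 2). That input number is the smallest that occurs, and could hide an input of 0.

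**Figure D2:**
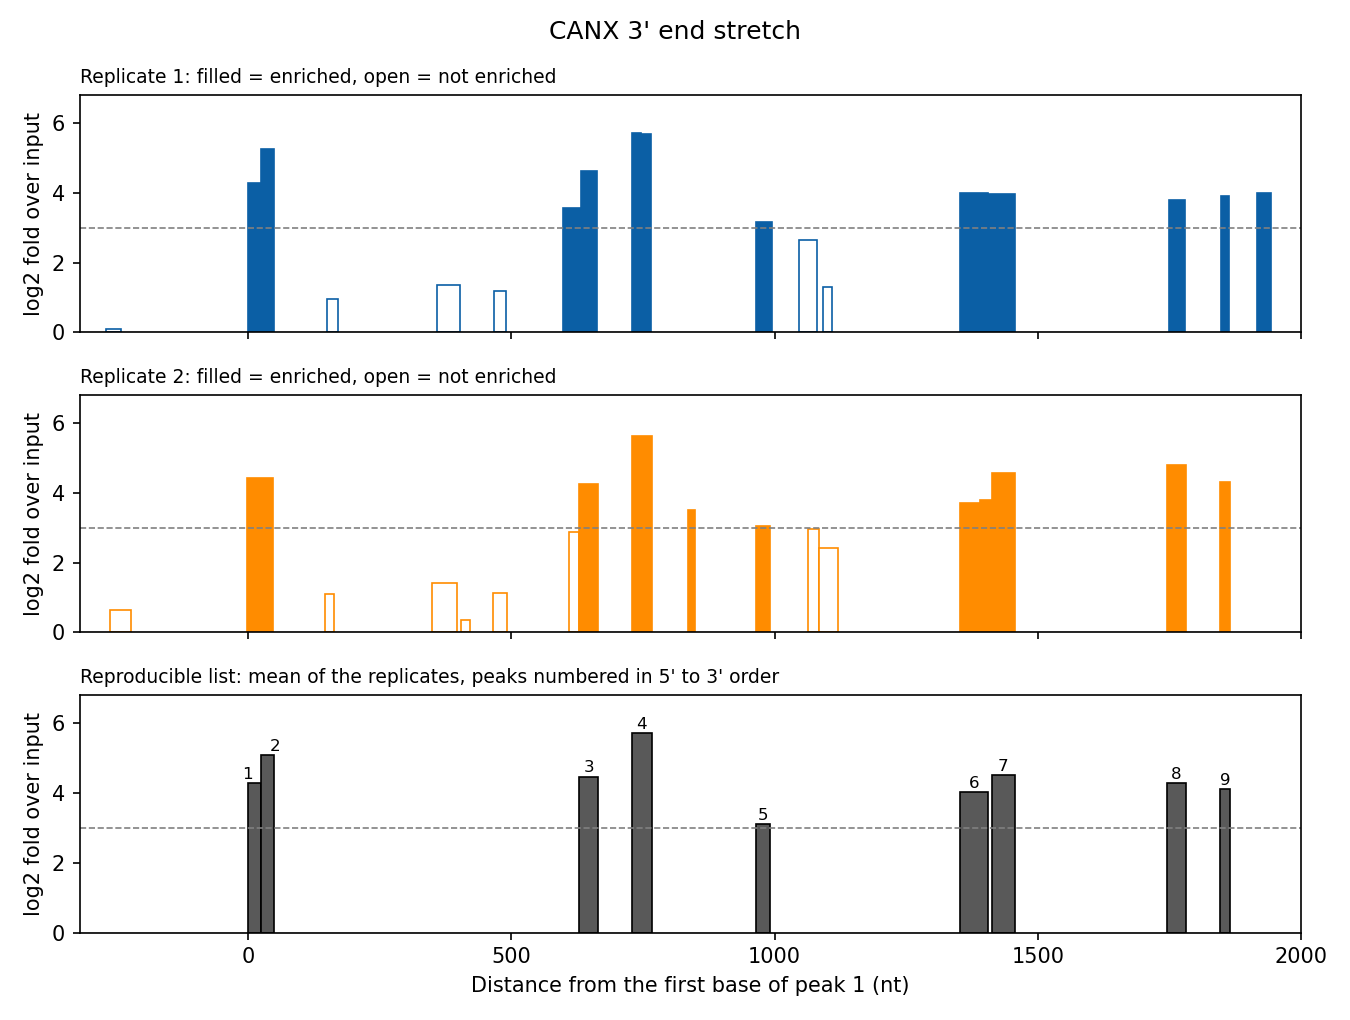
Log2 fold over input (vertical axis) of each interval near the 3′ end of CANX, drawn from its first to its last base as distance in nt from the start of peak 1, for replicate 1, replicate 2 and the reproducible list. Filled bars in the upper panels are enriched clusters and open bars are not, the dashed line marks a log2 fold of 3, and tall filled bars alternate with open bars that stay below 3 in both replicates.

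Joined across replicates where they overlapped, CANX clusters formed 14 sites in the stretch and 25 in the rest. Of the 14, 12 had a cluster in both replicates and 7 were enriched in both. Those 7 sites hold all 9 peaks. Of the 25 sites elsewhere, 5 had a cluster in both replicates and none was enriched in both. Over the whole interval, 21 of 35 in replicate 1 (60%) and 20 of 28 in replicate 2 (71.4%) overlapped a cluster of the other list, beside 28.9% and 45% of all clusters. These shares go with read number as well, and the crowd of reproducible peaks chose the gene.

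Between the peaks lay clusters with many reads that were not enriched. From 179156301 to 179156344 replicate 1 had 53 reads over 22 in the input, a log2 fold of 1.36, and replicate 2 had 39 over 21 from 179156292 to 179156339, at 1.41. That is more reads than at peaks 8 and 9 in replicate 1 and as many as at peak 8 in replicate 2. Near 179156410 the folds were 1.19 (28 reads over 13) and 1.13 (20 over 13), and near 179156092 they were 0.962 (22 over 12) and 1.10 (18 over 12). These 3 sites were low in both replicates. The site around 179157028 to 179157062 was less alike, with a log2 fold of 1.29 (30 reads over 13) in replicate 1 and 2.43 (49 over 13) in replicate 2, and it too was not enriched in either.

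Enriched and unenriched clusters of the stretch differed in the input as well as in the immunoprecipitate. In replicate 1 the median input number was 3 at the 11 enriched clusters and 13 at the 5 others, and the median of immunoprecipitated reads was 72 and 30. In replicate 2 the median input number was 3.5 at the 10 enriched clusters and 13 at the 7 others, and the median of reads was 49 and 26. Fold over input is part of the call, so this split is a description of where the call comes from. The replicates are compared with a single input, so a chance high or low input number moves both in the same direction.

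**Figure D3:**
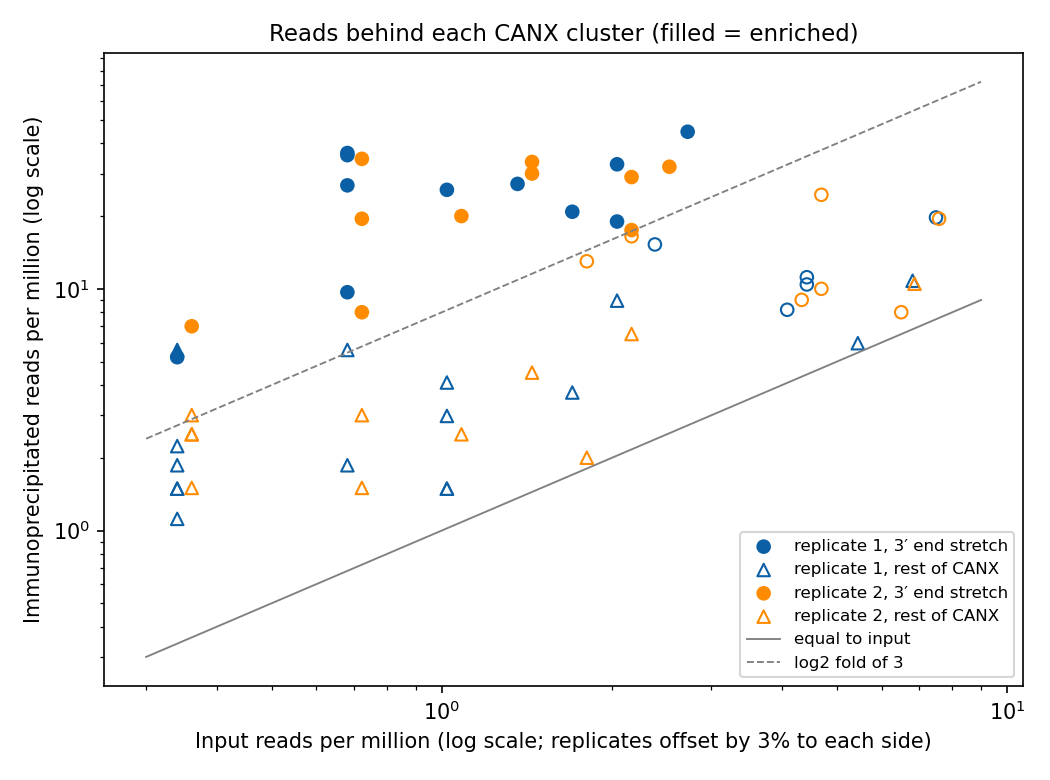
Immunoprecipitated reads (vertical) against input reads (horizontal), both scaled to library size and on log axes, for CANX clusters with recovered reads, in replicate 1 (blue) and replicate 2 (orange). Circles lie in the 3′ stretch, triangles in the rest of CANX, filled symbols are enriched, the solid line marks equality with the input and the dashed line a log2 fold of 3, and the open circles to the right are stretch clusters with input numbers of 5 to 22 reads.

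A few clusters stood just inside or outside the cut-offs. Just inside were peak 5 in replicate 2 (log2 fold 3.06) and in replicate 1 (3.18). Just outside was the cluster from 179157006 to 179157027 in replicate 2, with a log2 fold of 2.97 and a −log10 p of 7.05, whose counterpart in replicate 1 reached 2.64. In replicate 1, the cluster from 179126291 to 179126318 near the start of the gene missed the fold at 2.99 with a −log10 p of 3.0. A log2 fold of 3.10 from 179136582 to 179136613 in replicate 2 rested on 6 reads over 1 and had a −log10 p of 1.65.

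Enriched clusters without a partner occurred once in each replicate. Replicate 1 had an enriched cluster from 179157859 to 179157886, after the last peak, with 15 reads over 1 and a log2 fold of 3.99, and replicate 2 listed no cluster there. Replicate 2 had one from 179156779 to 179156790, between peaks 4 and 5, with 16 reads over 2 and a log2 fold of 3.51, which no cluster of replicate 1 overlapped. Neither is in the reproducible list. At such read numbers the lack of a listed cluster does not show that the other replicate had no reads there.

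Counting error set wide limits on each fold. Exact 95% intervals (Clopper-Pearson, counting error only) of the log2 fold of peak 4 ran from 3.94 to 8.89 in replicate 1 and from 3.71 to 8.70 in replicate 2. Those of peak 5, the weakest, ran from 1.95 to 4.69 and from 1.79 to 4.60. The intervals of peak 6, with the largest input number, were the narrowest, from 2.97 to 5.24 and from 3.0 to 5.29. Ordered by mean fold, the peaks were 4, 2, 7, 3, 8, 1, 9, 6 and 5. Intervals of neighbours in that order overlapped in both replicates, as did those of peaks 4 and 5 at its ends. Overlap of such intervals is no test of a difference. Differences between peaks were not tested, so the order among the 9 is a description only.

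**Figure D4:**
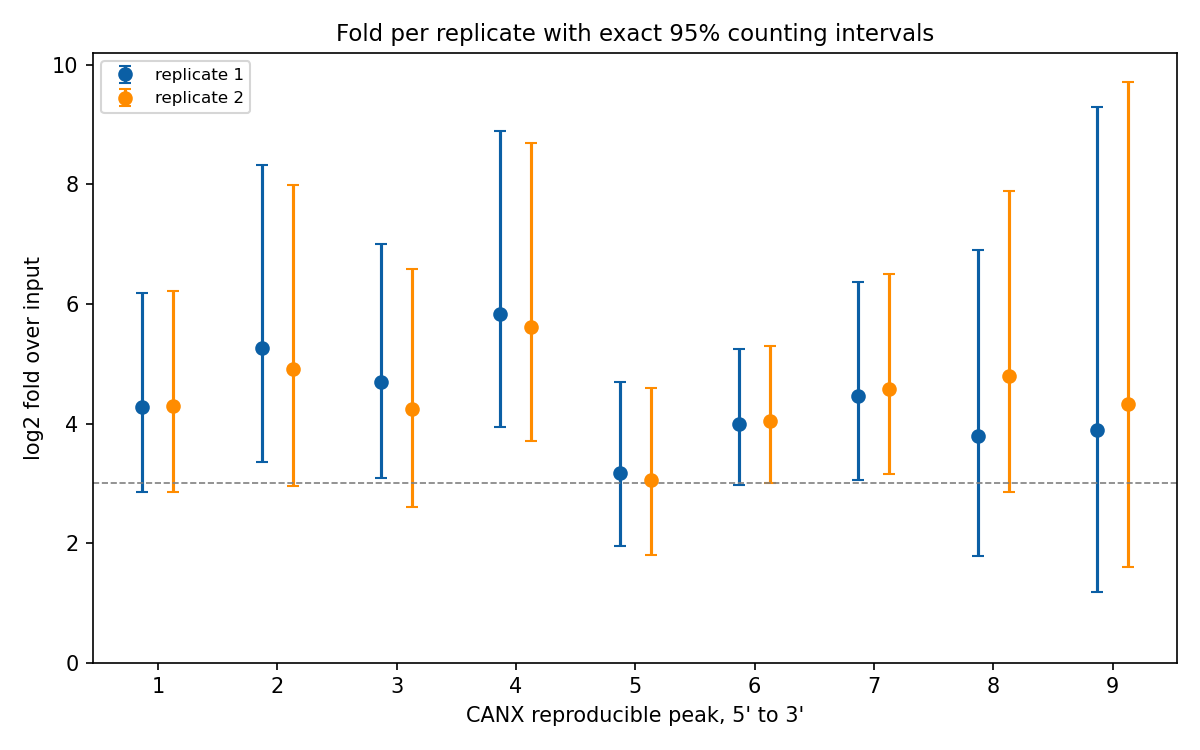
Log2 fold over input (vertical axis) of the 9 CANX reproducible peaks from 5′ to 3′ in replicate 1 (blue) and replicate 2 (orange), with exact 95% intervals for counting error as bars. Peak 4 is highest and peak 5 lowest in both replicates, and the interval of every peak in one replicate overlaps that of the same peak in the other.

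The balance of reads between the replicates was also compared. The list of reproducible peaks draws on the folds of both replicates, so peaks that differ strongly between them would tend not to be listed, and a lack of calls here is no independent sign of agreement. At each peak the share of its reads that came from replicate 1 was set against 57.3%, the share of the library totals, by a two-sided exact binomial test adjusted by Benjamini-Hochberg over the 2247 reproducible peaks with whole reads. None of the 9 CANX peaks was called, by this test or by Fisher's exact test, where 1.82% of all peaks were, and 1 had an unadjusted p under 0.05. That was peak 8, with 40% of its reads in replicate 1 (exact 95% interval 28.0 to 52.9, binomial p = 0.00557, adjusted p = 0.139). At the other peaks the share ran from 50% at peak 9 to 64.6% at peak 3. The fold was higher in replicate 1 at 4 peaks and in replicate 2 at 5.

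The rest of CANX carried sparse clusters. In replicate 1, 19 clusters lay outside the stretch, and the 16 with recovered reads held 3 to 29 reads with a median of 7. In replicate 2, 11 clusters held 3 to 21 reads with a median of 5. The longest run without a cluster measured 19066 nt in replicate 2, from 179136613 to 179155680, and 6783 nt in replicate 1, from 179144033 to 179150817. Replicate 1 listed 2 clusters below the input, at log2 folds of -1.13 and -0.23, and replicate 2 none.

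Some of these clusters recurred. A site from 179133313 to 179133339 held 24 reads in replicate 1 and 13 in replicate 2 over 6 in the input, with log2 folds of 2.09 and 1.63. Near the 5′ end, a site from 179126291 to 179126330 had 15 and 6 reads over 2, at 2.99 and 2.10. The site just before the stretch, from 179155673 to 179155719, had as many reads as some peaks (16 and 21) but also 16 and 19 in the input, so its folds were 0.09 and 0.66. The next site downstream, that of peaks 1 and 2, stood above 4 in both replicates.

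CANX was set beside the stretches of reproducible peaks most like it, joined at gaps of up to 1000 nt on a strand and taken by number of peaks and then by span. Of 1845 such stretches, 16 held 5 or more peaks, 1 held more peaks than CANX and 1 held as many. The nearest were on the plus strand of chromosome 11, with 9 peaks from 65192274 to 65195306 (median log2 fold 4.19) and 10 peaks from 65199509 to 65202121 (4.06). Next came 8 peaks on chromosome 10, minus strand, between 73576069 and 73577147 (4.48). Their spans were 3033, 2613 and 1079 nt, against 1866 nt for CANX. CANX had 4.82 peaks per kb, above the 2.97 and 3.83 of the stretches on chromosome 11 and below the 7.41 of that on chromosome 10. Among the 16 stretches with 5 or more peaks, 6 had more peaks per kb than CANX. The stretches on chromosome 11 are neighbours on 1 strand, ending at 65195306 and beginning at 65199509, and may be parts of 1 locus. No difference between stretches was tested.

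The annotated CANX transcript has a long, U-rich 3′ untranslated region. Coordinates of GENCODE release 29 are on GRCh38 and were not carried over to these intervals. In its basic set, the longest coding transcript with complete ends, CANX-201, has 4260 nt in 15 exons. Its last exon measures 2335 nt. The 3′ untranslated region takes up 2281 nt of it, or 53.5% of the transcript. U makes up 36.2% of the 3′ untranslated region, 23.7% of the coding sequence and 14.5% of the 5′ untranslated region. Runs of 5 U start at 38 positions in the 3′ region (16.7 per kb), at 4 in the coding sequence (2.25 per kb) and at none in the 5′ region. The comparison took 13191 annotated 3′ untranslated regions of at least 500 nt, 1 per gene from its longest such transcript. Of these, 91.6% had less U and 93.9% had fewer such runs per kb, and 90.5% held at least 1. Whether the TIA1 peaks lie on those runs was not tested. Peaks 1 and 2 ended 2675 and 2651 nt before the end of the interval, which is more than the 2335 nt of that last exon. Whether the annotated transcript ends where the interval does was not examined, so no peak is placed in this region.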

How the data were processed

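The authors deposited 1 list of clusters per replicate and 1 of reproducible peaks, in hg19 per the submitters' processing notes, which also name SAMtools 1.4.1, STAR 2.4.0i and cutadapt 1.9.1 and 1.14. The cluster caller is not given in the sources used here. None of the lists has a header. From the values, the deposited −log10 p compares an interval with the input and stops at 400, and the deposited log2 fold is a ratio to the input that the authors scaled by library size. The input enters only through these values. Samples were grouped by title.

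Library totals were recovered with Python 3.11.15 and SciPy 1.17.1 as the smallest whole totals that give the steps of the log2 folds, times 3, the multiple up to 6 that best returned the −log10 p values. The reads of an interval were the only whole pair that returned its fold and its −log10 p within a relative 2e-05 or an absolute 5e-06. The p came from a Yates-corrected chi-square test or, with any observed or expected number below 5, from Fisher's exact test, a form found by matching these data. A unique pair was found for 89.6% and 96.0% of clusters, and for all CANX clusters but 3 of replicate 1. At peaks, reads were whole within 1e-04 at 99.7%. The recovery and the test between replicates were tested on simulated data. The simulated −log10 p values were made with the same form of p. They therefore could not show whether that form, or the recovered totals, hold for the deposited lists. Intervals overlapped if they shared 1 nt and the strand, and intervals cover counting error only.

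The gene, its stretch and these comparisons were chosen with earlier results of these data known. Intervals named in full are all CANX peaks, the clusters with the most reads or highest folds and the enriched clusters outside the stretch. Other intervals named, between peaks, near the cut-offs or shared by both replicates, were chosen after their values were seen. Alternatives changed the cut-offs, the stretch, the replicates, the read limit and the test. Other genes of the calnexin cycle and motifs under the peaks were not analysed here, as no annotation or sequence of hg19 was used.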

Additional observations from a re-analysis of the deposited data

How the results depend on the processing

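Of 12 alternative settings other than leaving out a replicate, 10 moved a count by at most 1.5 times or a value by less than the SD between replicates. None turned a direction, but only the settings for the difference in median log2 fold could do so. The wider stretches contain the main one, so they could only keep or raise the share of enriched clusters inside. That share had a mean of 95.8% and an SD of 5.89, so these settings could not move it by that rule. Leaving out a replicate is not counted among them, since with 2 replicates either value lies within 1 SD of their mean by construction. With the cut-offs raised to 4 for the log2 fold and 5 for the −log10 p, enriched CANX clusters fell from a mean of 11 per replicate to 5, all inside the 3′ stretch. Counting 1 cluster per site, chosen after seeing the data along with the replicate ranges of that share, lowered the share of CANX cluster reads in the stretch from a mean of 87.2% to 82.9%, as adjoining clusters share reads. Using 1 replicate alone gave 10 to 12 enriched clusters, 91.7% to 100% of them in the stretch, a median log2 fold 1.83 to 2.34 higher in the stretch and 85.2% to 89.2% of the reads. By the binomial test with a pooled share, and by Fisher's exact test, 0 of 9 peaks differed between replicates after adjustment (smallest adjusted p = 0.247 and 0.139) and 1 did before. The share of peaks with a run of U, in its 3 forms, was not run because no sequence of hg19 was used. No paired analysis was possible because there is 1 input for 2 replicates. Depth limits single folds, since input numbers at the 9 peaks were 1 to 8.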

Other observations

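Runs of 5 U were unevenly placed along the CANX 3′ untranslated region of GENCODE release 29. Counted from its first base, 14 of the 38 starts lay between 201 and 600 nt, 12 between 1201 and 1400 nt and 8 between 1601 and 1800 nt. The first 200 nt held none and 27% U, and the bin from 1601 to 1800 nt had the most U, 45%. These positions are on the annotated transcript and were not matched to the hg19 intervals.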
